A study of Mus musculus with 9 samples.

Results

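Liver expression was compared directly between mice fed permethrin and mice fed clofibrate. The members were the 3 arrays labelled permethrin and the 3 labelled clofibrate, 6 of the 9 arrays of the series, and the other 3 arrays came from control mice. All mice were females of the outbred stock Crlj:CD1(ICR), bought at 9 weeks of age and quarantined for 1 week, with 1 array per liver. The diets held 5000 ppm permethrin, 5000 ppm clofibrate or neither agent (0 ppm), and were fed for 2 weeks. The 2 doses are equal as mixed into the diet, not as received by the liver. The sample descriptions speak of rats, whereas organism, source and stock are given as mouse. The question asked is which genes separate the 2 diets, over all probe sets of the array.

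Permethrin belongs to the pyrethroids, a class of insecticides that act on nerve sodium channels. Clofibrate, a fibrate, is a drug that lowers blood lipids; fibrates activate the nuclear receptor PPAR alpha, which in rodent liver raises genes for the uptake, activation and oxidation of fatty acids in mitochondria and peroxisomes. CAR and PXR are nuclear receptors of the hepatocyte that respond to foreign compounds and raise cytochromes P450, transferases and transporters that modify and export them; Cyp2b10 is the textbook CAR target. NRF2 is a transcription factor that raises glutathione transferases and reductases when electrophiles are present. Hepatocytes also make most plasma proteins, which enter the endoplasmic reticulum (ER), are folded and glycosylated there, and leave in COPII-coated vesicles.

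Values are linear array signals without a physical unit. All 9 arrays had been scaled to 1 common trimmed mean. Pearson correlations of log2 signals ran from 0.960 to 0.963 among permethrin arrays, from 0.959 to 0.966 among clofibrate arrays and from 0.954 to 0.963 between the diets. The highest signal on an array ran from 12792 to 13409 with permethrin and from 10714 to 12058 with clofibrate, which do not overlap, and from 14387 to 14899 in controls, above both diets. The 18S ribosomal RNA control had signals of 47.6 to 131 with permethrin, 87.7 to 126 with clofibrate and 191 to 208 in controls. Clofibrate replicate 1 was the clofibrate array nearest to the permethrin arrays in 50 of the 92 genes called below (54.3%) and in 36.6% of all tested genes. Each diet array was also left out in turn, and where this ended a call, the largest adjusted p of these fits is given with the array left out.

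The diets differed in 92 of 12476 tested genes (0.737%) at an adjusted p under 0.05 in limma, with 59 genes higher with permethrin (0.473%) and 33 higher with clofibrate (0.265%). The median size of the difference among the called genes was 1.92-fold, and 38 genes differed at least 2-fold (0.305%), 18 higher with permethrin (0.144%) and 20 with clofibrate (0.16%). In every one of the 92 genes the 3 arrays of 1 diet lay on 1 side of the 3 of the other; over all tested genes that held for 2263 (18.1%). The median difference of all genes, permethrin minus clofibrate, was -0.0051 on the log2 scale. By probe set, 136 of 24546 passed (0.554%), 81 higher with permethrin (0.33%) and 55 with clofibrate (0.224%). In the same model, 265 genes differed between permethrin and control (2.12%) and 877 between clofibrate and control (7.03%); these 2 comparisons share the control arrays, and the part of the higher maxima and 18S signals of those arrays in them was not tested. The split of 59 against 33 depended on scaling and on how probe sets were combined: it was 39 against 42 when all probe sets of a gene were averaged, 49 against 37 with the probe set of largest variance, 51 against 46 after cyclic loess normalization, 25 against 7 when arrays were centred on their medians, and 9 against 52 after scaling to the hybridization controls. That last scaling moved the median of all genes to -0.22, so list medians were also taken relative to it. Relative to all genes they were then 0.64 for CAR targets, 0.50 for NRF2 targets, 0.34 for glucuronidation, -0.27 for fatty acid uptake and binding, -0.31 for mitochondrial fatty acid oxidation and -0.56 for cholesterol synthesis.

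**Figure D1:**
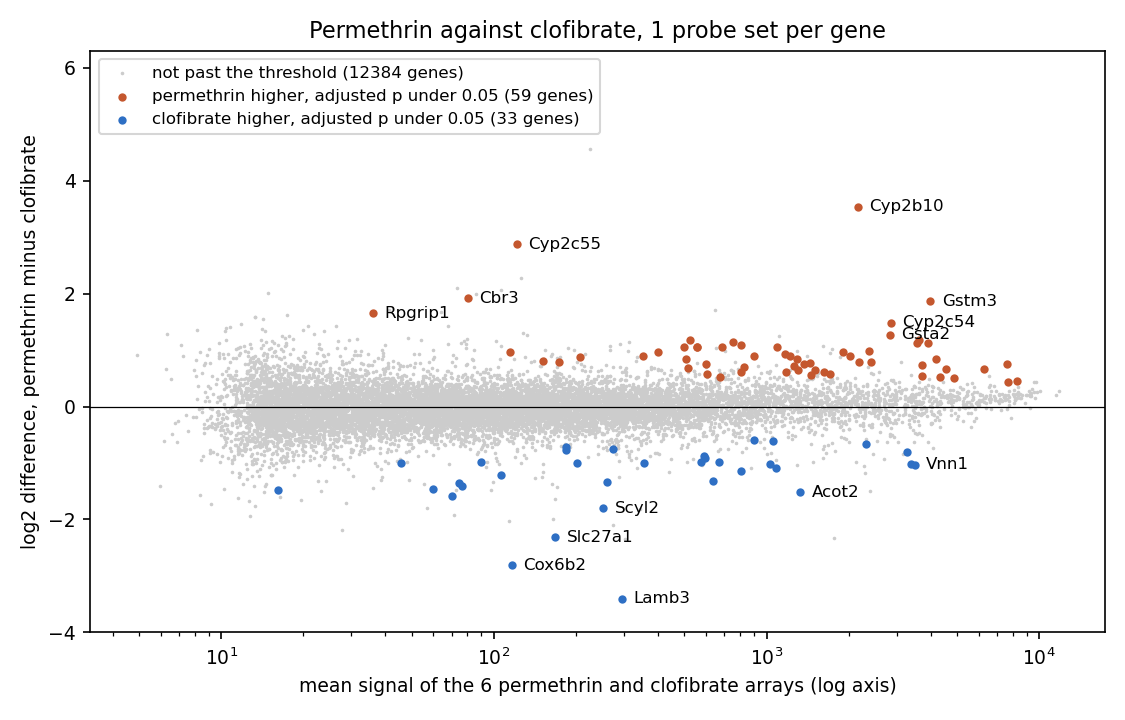
Each point is a gene, with the mean signal of the 6 permethrin and clofibrate arrays on a log axis and the log2 difference between the diets (permethrin minus clofibrate) on the vertical axis. Orange points are the 59 genes higher with permethrin and blue points the 33 higher with clofibrate. Most orange points lie at high signals and most blue points at lower ones, and Cyp2b10 and Lamb3 mark the extremes of the called genes.

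Called genes were unevenly spread over signal. Among the 977 tested genes with a mean signal over the diet arrays between 1000 and 5000, 31 were called higher with permethrin and 8 with clofibrate, and the median difference of these genes was 0.064. Among the 145 genes above 5000, 4 were called, all higher with permethrin, and the median was 0.16. After cyclic loess normalization these medians were -0.0036 and 0.042. The part of this shift in the calls of bright genes was not tested.

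Cyp2b10 separated the diets most clearly. Its signals were 4179, 4148 and 3628 with permethrin, 299, 402 and 326 with clofibrate and 763, 646 and 1098 in controls. All control arrays lay between the diets, below every permethrin array and above every clofibrate array. The difference between the diets was 11.6-fold (3.54 ± 0.18, log2 ± SE, n = 3 per diet; limma adjusted p = 1.2e-05). Against control, Cyp2b10 was 4.86-fold higher with permethrin (adjusted p = 8.44e-05) and 2.39-fold lower with clofibrate (adjusted p = 0.00213). All of its 3 probe sets passed, at log2 differences of 3.54, 3.79 and 4.30.

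Cyp2c55, another P450 that CAR and PXR raise, had signals of 311, 135 and 204 with permethrin, 24.1, 29.8 and 21.8 with clofibrate and 40.4, 55.6 and 57.4 in controls. Its permethrin arrays were all far above the others, and the control arrays again lay between the diets. The difference was 7.34-fold (2.87 ± 0.27; adjusted p = 9.30e-04). Cyp2b10 and Cyp2c55 were the 2 genes past the threshold in every one of the 22 alternative settings, leave-one-out fits included.

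**Figure D2:**
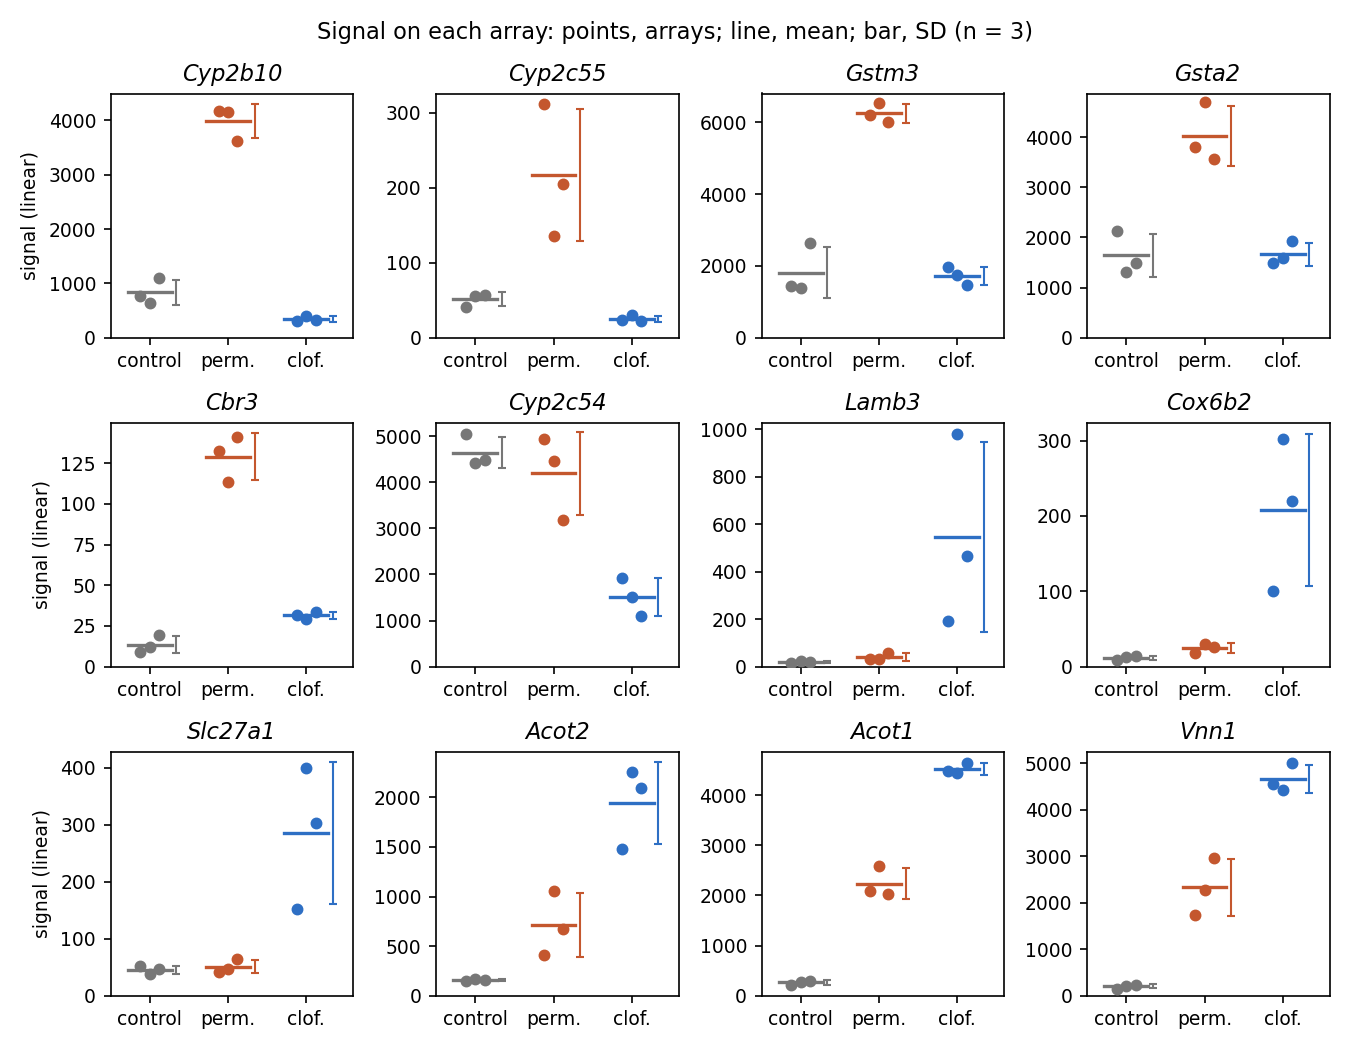
Linear signals of 12 genes on each array, with control, permethrin (perm.) and clofibrate (clof.) groups of 3 arrays; points are arrays, lines are means and bars are SD. In the top row and for Cbr3 and Cyp2c54 every permethrin array is above every clofibrate array; from Lamb3 on the order is the opposite.

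Among 24 tested CAR targets, 11 were called higher with permethrin than with clofibrate (45.8%, against 0.473% of all tested genes), and 0 lower. In list counts here and below, higher and lower mean past the threshold. The list's median difference was 0.64 on the log2 scale, against -0.0051 for all genes. The lists overlap: of the 11, Gstm1, Gstm2 and Gstm3 are counted again below among glutathione transferases and NRF2 targets. Ugt2b34 and Ugt2b35 are counted again under glucuronidation. In several called members beside Cyp2b10 and Cyp2c55 the clofibrate arrays were below control. Cyp2c54, a P450 of the 2C family, had signals of 4928, 4465 and 3179 with permethrin, 1933, 1503 and 1105 with clofibrate and 5038, 4417 and 4481 in controls. Permethrin and control arrays overlapped, and all clofibrate arrays were lower. The diets differed 2.79-fold (1.48 ± 0.20; adjusted p = 0.00869), and clofibrate was 3.14-fold below control (adjusted p = 7.28e-04). Cyp2c50 differed 2.18-fold (adjusted p = 0.0112), with means of 5338 ± 495 (SD) with permethrin, 2495 ± 695 with clofibrate and 5370.5 ± 311 in controls (n = 3 each). Cyp2c29 differed 1.37-fold (adjusted p = 0.0319) at a mean signal of 9617 with permethrin and 7011 with clofibrate. Ces2a, a carboxylesterase, was 2638, 2612 and 2636 with permethrin and 1259, 1414 and 1589 with clofibrate, a 1.86-fold difference (adjusted p = 0.00345); clofibrate was 2.14-fold below control (adjusted p = 1.33e-04). The calls of Cyp2c54 and Ces2a held with each diet array left out in turn. Those of Cyp2c50 and Cyp2c29 ended in 2 and 5 of these 6 fits, with largest adjusted p-values of 0.0726 without clofibrate replicate 3 and 0.162 without clofibrate replicate 3.

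Of 37 tested P450 genes of xenobiotic metabolism, 6 were higher with permethrin and 0 with clofibrate, with a median of 0.22; the sixth, beside the 5 named, was Cyp2c70. This enzyme makes muricholic acids, the characteristic bile acids of mice. It had means of 4624 ± 163 with permethrin, 2811 ± 562 with clofibrate and 6597 ± 201 in controls, a difference of 1.67-fold between the diets (adjusted p = 0.0334; 0.108 without permethrin replicate 2). Cyp3a11, the main PXR-raised P450 of mouse liver, was 9754, 10610.0 and 9818 with permethrin and 7481, 9569.9 and 8546 with clofibrate. Its log2 difference of 0.24 ± 0.10 did not pass (adjusted p = 0.333; 95% interval 0.04 to 0.45). PXR targets had 4 of 13 higher with permethrin, 0 lower, and a median of 0.34; all 4 are also in the list of CAR targets. The P450 list's median was -0.0089 after scaling to the hybridization controls, which is 0.21 above the median of all genes under that scaling.

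Conjugating enzymes of the UGT2B family followed. Ugt2b35 was 5591, 5109.5 and 4307 with permethrin and 2894, 1522 and 2365 with clofibrate, and Ugt2b35 was 1.88-fold above control with permethrin (adjusted p = 0.0465; 0.132 without permethrin replicate 1). The 3 clofibrate arrays spread widely, and the highest stayed below the lowest permethrin array. The diets differed 2.28-fold (1.19 ± 0.20; adjusted p = 0.0252). Ugt2b1 differed 2.18-fold (adjusted p = 0.023), with clofibrate 2.02-fold below control (adjusted p = 0.00844). Ugt2b34 differed 1.45-fold (adjusted p = 0.0263), and both of its probe sets passed. These were 3 of 13 tested genes of glucuronidation, none was higher with clofibrate, and the list's median was 0.35. Each of the 3 calls ended in some leave-one-out fits (3, 4 and 4 of 6); the largest adjusted p-values were 0.0953, 0.0953 and 0.143, all without clofibrate replicate 3.

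Glutathione transferases join glutathione to electrophiles. Of 20 tested, 7 were higher with permethrin, 0 were higher with clofibrate, and the median was 0.22. Gstm3 had signals of 6212, 6529 and 6005 with permethrin, 1967, 1754 and 1459.8 with clofibrate and 1429, 1371 and 2634 in controls. Clofibrate arrays lay within the control range, and all permethrin arrays were above both. Gstm3 differed 3.64-fold between the diets (1.86 ± 0.21; adjusted p = 0.00345) and its second probe set 6.32-fold (adjusted p = 0.000375). Gsta2 was 3805, 4697 and 3555 with permethrin and 1486, 1579.9 and 1919 with clofibrate, with controls at 2129.5, 1311 and 1498. Here too clofibrate and control arrays overlapped, and the diets differed 2.41-fold (1.27 ± 0.18; adjusted p = 0.00999). Gstm1 had signals of 9301, 10218 and 9126 against 5479, 6181 and 5359, a 1.68-fold difference (adjusted p = 0.00433) with all control arrays between. Gsta4 differed 1.86-fold (adjusted p = 0.00558), with permethrin and control overlapping and clofibrate 1.71-fold below it (adjusted p = 0.0021).

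The other calls of this family were less stable. Gstm2 differed 2.13-fold (adjusted p = 0.0338), Gstm6 1.8-fold (adjusted p = 0.0284) and Gstp1 1.35-fold (adjusted p = 0.0334). Each of these 3 calls ended in 4 of the 6 leave-one-out fits, with largest adjusted p-values of 0.111 without permethrin replicate 3, 0.143 without clofibrate replicate 3 and 0.155 without clofibrate replicate 3. Gstm3, Gstm1, Gsta2 and Gsta4 stayed past the threshold in all 6. The probe set of Gstm3 and 2 of Gstm1 are of types that the array design marks as matching more than 1 transcript, so these mu-class signals may be shared among relatives. After scaling to the hybridization controls the median of the transferases was -0.0057, which is 0.22 above the median of all genes there, and with array weights 1 member was called with clofibrate higher.

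Of 34 tested NRF2 targets, 9 were higher with permethrin and 0 with clofibrate, at a median of 0.51; 7 of the 9 are the glutathione transferases above. The other two were Cbr3, a carbonyl reductase, and Aox1, an aldehyde oxidase. Cbr3 was 133, 113 and 141 with permethrin, 31.8, 29.4 and 33.6 with clofibrate and 9.18, 12.05 and 19.5 in controls. The 3 groups did not overlap. It was 3.78-fold higher with permethrin than with clofibrate (1.92 ± 0.23; adjusted p = 0.00433), and above control on both diets, 8.04-fold (adjusted p = 5.92e-05) and 2.13-fold (adjusted p = 0.0173; 0.0723 without clofibrate replicate 3). Aox1 was 1308, 1739.6 and 1541 with permethrin, 1000.2, 681 and 750.3 with clofibrate and 482, 560.3 and 485 in controls, with the same order of groups and a 1.9-fold difference between the diets (adjusted p = 0.027; 0.139 without clofibrate replicate 3). Nqo1, a quinone reductase used as a readout of NRF2, had 129, 143 and 145 against 98.6, 85.3 and 96.4. These arrays did not overlap, yet its difference of 0.56 ± 0.14 did not pass (adjusted p = 0.134; 95% interval 0.24 to 0.87). Gclc, which makes the first bond of glutathione, had a difference of 0.79 ± 0.21 (adjusted p = 0.147; 95% interval 0.32 to 1.25). The export pump Abcc4 was above control with permethrin (7.86-fold, adjusted p = 1.74e-04) and with clofibrate (4.71-fold, adjusted p = 5.67e-04), and its difference between the diets, 0.74 ± 0.26, did not pass (adjusted p = 0.278; 95% interval 0.17 to 1.31).

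Genes of the endoplasmic reticulum formed the other large group higher with permethrin. Of 25 tested genes of the ER stress response, 6 were higher with permethrin (Hyou1, Pdia6, Dnajb11, Hspa5, Dnajc3 and Calr), 0 were higher with clofibrate, and the median was 0.53. In 5 of the 6 (all but Dnajc3) clofibrate was below control at an adjusted p under 0.05, and in 0 of the 6 did permethrin differ from control at that threshold. These 5 calls against control all ended after scaling to the hybridization controls, with adjusted p-values from 0.055 for Hyou1 to 0.611 for Hspa5. That of Hspa5 ended in 14 of 21 settings, 4 of them leaving out 1 array (adjusted p = 0.101 without clofibrate replicate 3). Hspa5, also called BiP, is the main chaperone of the ER lumen. Its signals were 5385, 4648 and 6069 with permethrin, 2777, 3081 and 3121 with clofibrate and 3708, 5191 and 4190.5 in controls. The clofibrate arrays were below all others, and permethrin and control overlapped. The diets differed 1.78-fold (0.84 ± 0.13; adjusted p = 0.0203).

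Hyou1, a large chaperone that works with Hspa5, was 817, 617 and 752 with permethrin, 325, 306 and 325 with clofibrate and 691, 614 and 656 in controls. Clofibrate was 2.04-fold below control (adjusted p = 7.16e-04), and the clofibrate arrays were close together. The diets differed 2.26-fold (1.18 ± 0.12; adjusted p = 0.00221), and this was the only one of the 6 calls that held in all leave-one-out fits. Pdia6, a protein disulfide isomerase, differed 2.2-fold (1.13 ± 0.17; adjusted p = 0.0139; 0.0812 without clofibrate replicate 3). Dnajb11 and Dnajc3, cochaperones of Hspa5, differed 1.85-fold (adjusted p = 0.0155; 0.0629 without clofibrate replicate 3) and 1.56-fold (adjusted p = 0.0207; 0.126 without clofibrate replicate 3). Calr, the lectin chaperone calreticulin, had signals of 5249, 6332 and 5567 with permethrin and 3886, 4319 and 3838 with clofibrate, a 1.42-fold difference (adjusted p = 0.0411; 0.177 without clofibrate replicate 3). The call of Hspa5 reached an adjusted p of 0.0897 without clofibrate replicate 3. After scaling to the hybridization controls 0 members of the list were called, while its median stayed 0.52 above that of all genes.

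**Figure D3:**
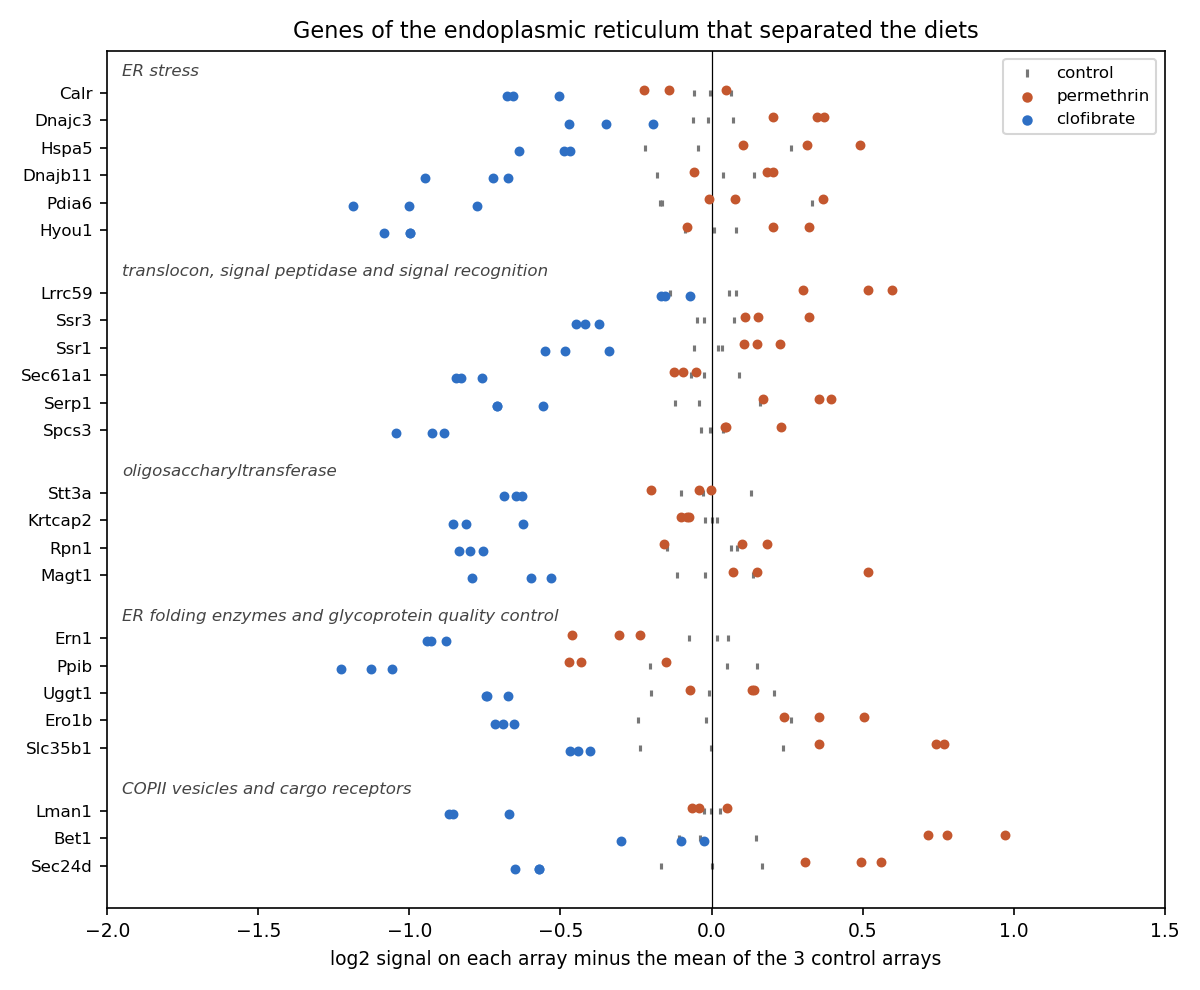
For 24 called genes of the ER and of vesicles that leave it, the log2 signal on each permethrin array (orange) and clofibrate array (blue) is drawn relative to the mean of the 3 control arrays, whose own values are grey ticks. Only genes called with permethrin higher are drawn, and no called gene had overlapping diet arrays. Clofibrate arrays therefore lie left of the permethrin arrays in every row by the choice of genes. In every row but Lrrc59 and Bet1 the clofibrate arrays also lie left of the control ticks. Genes outside the ER stress list come from lists drawn up after the differences had been seen.

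The promoters of these genes are shown because 5 of the called genes share a long motif. The ER stress element, CCAAT and CCACG with any 9 bases between them, on either strand, is known as a binding site of ATF6 with NF-Y, and both factors act in the unfolded protein response. It was searched in RefSeq windows (GRCm38.p6) of 250 bases before to 50 after each gene's start. It was found in 5 of 51 called genes higher with permethrin that had a window (9.8%), in 0 of 25 higher with clofibrate, in 16 of 10083 tested genes (0.159%) and in 39 of 32851 windows overall (0.119%). All 5 are ER genes that this same contrast had picked, so these shares describe and do not support. Most of the 16 tested genes with the motif were not called. The 250 bases before the start are printed 5′ to 3′ on the gene's strand, with the matched letters in capitals.
Hspa5 (chr2:34771840-34772089, plus strand): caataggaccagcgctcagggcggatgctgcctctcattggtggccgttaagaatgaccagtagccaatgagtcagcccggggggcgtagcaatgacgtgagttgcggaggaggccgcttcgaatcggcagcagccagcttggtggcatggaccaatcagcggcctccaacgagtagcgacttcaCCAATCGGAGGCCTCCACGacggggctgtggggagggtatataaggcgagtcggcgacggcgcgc
Calr (chr8:84846932-84847181, minus strand): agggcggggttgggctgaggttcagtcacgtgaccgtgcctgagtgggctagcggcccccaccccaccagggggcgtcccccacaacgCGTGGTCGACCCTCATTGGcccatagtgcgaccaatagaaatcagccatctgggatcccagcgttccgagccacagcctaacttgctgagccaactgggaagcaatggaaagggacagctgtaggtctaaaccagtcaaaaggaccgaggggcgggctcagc
Pdia6 (chr12:17266339-17266588, plus strand): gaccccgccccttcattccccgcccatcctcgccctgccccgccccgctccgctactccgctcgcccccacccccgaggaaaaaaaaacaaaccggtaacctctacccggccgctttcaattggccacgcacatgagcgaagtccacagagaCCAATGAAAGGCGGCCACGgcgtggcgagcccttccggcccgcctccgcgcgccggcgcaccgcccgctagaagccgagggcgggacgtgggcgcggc
Dnajc3 (chr14:118937682-118937931, plus strand): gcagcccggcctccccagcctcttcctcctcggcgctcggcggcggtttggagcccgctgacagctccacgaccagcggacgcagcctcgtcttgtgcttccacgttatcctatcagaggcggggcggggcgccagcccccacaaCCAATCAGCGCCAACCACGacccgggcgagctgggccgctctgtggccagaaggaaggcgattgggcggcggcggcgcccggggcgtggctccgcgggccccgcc
Ero1b (chr13:12565633-12565882, plus strand): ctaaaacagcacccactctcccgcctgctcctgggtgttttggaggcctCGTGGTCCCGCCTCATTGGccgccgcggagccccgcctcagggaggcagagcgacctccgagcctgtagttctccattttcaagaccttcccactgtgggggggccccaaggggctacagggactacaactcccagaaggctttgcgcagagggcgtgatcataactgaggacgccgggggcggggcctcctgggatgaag
The match begins 65 bases before the start in Hspa5, 162 in Calr, 98 in Pdia6, 105 in Dnajc3 and 201 in Ero1b; in Calr and Ero1b it reads on the opposite strand.

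A second form, ATTGG and CCACG with 1 base between them, on either strand, was found in 2 of the 51 genes and in 12 of 32851 windows (0.0365%), or 8 of 10083 tested genes (0.0793%). Its letters are ATTGGCCCACG in Dnajb11 and ATTGGACCACG in Krtcap2, just after the start of each. The shorter TGACGTGG, on either strand, was found in Lrrc59 and Sec24d and in 1.03% of tested genes. The antioxidant response element, TGACNNNGC on either strand, was found in 5 of 51 genes higher with permethrin, in 4 of 25 higher with clofibrate (16%) and in 16.8% of tested genes. Direct repeats of AGGTCA with 1 base between (the PPAR type) or 4 bases between (the CAR type) were found in 0 of the 51 and 0 of the 25 windows. They were found in 5 and 0 of 10083 tested genes, and in 13 and 5 of all windows. With so few matches among tested genes, their absence from the called genes carries no information. The called genes were picked by the contrast itself, so all of these shares only describe. A match is a run of letters only, and binding was not measured.

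Further ER genes were counted in lists drawn up after the differences had been seen, so their counts describe and do not support. The channel and signal peptidase complexes take new proteins across the ER membrane, and 6 of 25 tested genes of this machinery were higher with permethrin, 0 with clofibrate, at a median of 0.36. Spcs3, a subunit of signal peptidase, was 647, 648 and 736 with permethrin, 302, 338 and 329 with clofibrate and 613, 644 and 624 in controls. The clofibrate arrays were far below the rest, and the diets differed 2.08-fold (1.06 ± 0.11; adjusted p = 0.00157). Serp1, which binds the translocon, was 2598, 2666 and 2281 against 1238, 1378 and 1239.8, a 1.95-fold difference (adjusted p = 0.00345). Sec61a1, the channel itself, differed 1.65-fold (adjusted p = 0.00617) with clofibrate 1.76-fold below control (adjusted p = 4.57e-04). Ssr1 and Ssr3, of the translocon-associated complex, differed 1.54-fold (adjusted p = 0.0178) and 1.53-fold (adjusted p = 0.0169), and Lrrc59, a ribosome-binding ER protein, 1.52-fold (adjusted p = 0.0432). The calls of Spcs3 and Serp1 held in all leave-one-out fits. Without clofibrate replicate 3 the adjusted p-values of Sec61a1, Ssr1, Ssr3 and Lrrc59 were 0.0513, 0.106, 0.105 and 0.173.

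The oligosaccharyltransferase attaches sugar chains to nascent proteins, and 4 of its 12 tested genes were higher with permethrin, 0 with clofibrate, at a median of 0.33. Rpn1, a structural subunit, was 1438, 1720.5 and 1820.1 with permethrin and 919, 947 and 896 with clofibrate, a 1.79-fold difference (0.84 ± 0.11; adjusted p = 0.00869), and 4 of its 6 probe sets passed. Those 4 are all of a type that the array design marks as matching more than 1 transcript. The call of Rpn1 ended when all probe sets were averaged. Magt1 differed 1.85-fold (adjusted p = 0.0168), Krtcap2 1.6-fold (adjusted p = 0.0164) and the catalytic subunit Stt3a 1.49-fold (adjusted p = 0.0286). All of these clofibrate means were below control at an adjusted p under 0.05, a call that ended for all 4 after scaling to the hybridization controls (0.111 for Rpn1 to 0.416 for Magt1) and for Magt1 also without clofibrate replicate 3 (0.091), and the permethrin arrays overlapped control in each but Krtcap2, where they lay just under it. Without clofibrate replicate 3 the adjusted p-values of the diet difference were 0.0629, 0.104, 0.105 and 0.136 in this order.

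Folding enzymes and glycoprotein quality control had 5 of 22 tested genes higher with permethrin and 0 with clofibrate, at a median of 0.32. Ero1b, an oxidase that drives disulfide formation, was 826, 689 and 747 with permethrin and 359.8, 353 and 369 with clofibrate, a 2.08-fold difference (1.05 ± 0.14; adjusted p = 0.00768) that held in all leave-one-out fits. Slc35b1, which carries ATP into the ER, was 1004, 767 and 1022 against 452, 439 and 431, with all control arrays (507, 598 and 706) between, and differed 2.09-fold (adjusted p = 0.00994; 0.0638 without clofibrate replicate 3). Ppib, a proline isomerase, was 2803, 3502 and 2882 with permethrin, 1868, 1779 and 1662 with clofibrate and 4033, 3381 and 4324 in controls. Its permethrin arrays overlapped the lower end of control, and clofibrate was 2.2-fold below control (adjusted p = 3.20e-04). The diets differed 1.72-fold (adjusted p = 0.0164; 0.103 without clofibrate replicate 3). Uggt1, the folding sensor of glycoproteins, differed 1.73-fold (adjusted p = 0.0319; 0.143 without clofibrate replicate 3). Ern1, the IRE1 sensor of unfolded protein, differed 1.5-fold (adjusted p = 0.0334; 0.155 without clofibrate replicate 3), with clofibrate 1.89-fold below control (adjusted p = 4.57e-04).

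Of 30 tested genes of COPII vesicles and cargo receptors, 3 were higher with permethrin and 0 with clofibrate, at a median of 0.29. Sec24d, a cargo adaptor of the coat, was 807, 677 and 769.7 with permethrin, 366, 347 and 366 with clofibrate and 485, 613 and 547 in controls, with the control arrays all between. It differed 2.07-fold (1.05 ± 0.12; adjusted p = 0.00345). Lman1, a cargo receptor for coagulation factors, differed 1.72-fold (adjusted p = 0.00492), with clofibrate 1.74-fold below control (adjusted p = 6.26e-04). Both calls held in all leave-one-out fits. Bet1, a SNARE of ER-to-Golgi traffic, was 584, 489 and 511 with permethrin and 291, 240.2 and 276 with clofibrate, 1.95-fold apart (adjusted p = 0.00869; 0.0513 without clofibrate replicate 3). After scaling to the hybridization controls the calls of clofibrate below control ended for Lman1, Sec61a1, Ern1, Gsta4 and Ugt2b1 as well. In Bet1 clofibrate overlapped control, and permethrin was 1.77-fold above control (adjusted p = 0.0093).

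The largest differences in favour of clofibrate were in genes of low control signal. Lamb3, a chain of the basement membrane protein laminin, was 193, 981 and 468 with clofibrate, 31.6, 32.0 and 58.9 with permethrin and 16.1, 23.9 and 20.2 in controls. The clofibrate arrays spread widely and all lay above the others. The diets differed 10.6-fold (-3.40 ± 0.46; adjusted p = 0.00869; 0.0603 without clofibrate replicate 3). Cox6b2, a cytochrome c oxidase subunit known from testis, was 101, 302 and 220.1 with clofibrate and 17.6, 30.3 and 26.0 with permethrin, 7.01-fold apart (-2.81 ± 0.35; adjusted p = 0.00558). It was the 1 gene higher with clofibrate whose call held in all 6 leave-one-out fits. In Lamb3, Cox6b2 and Slc27a1 clofibrate replicate 1 was the lowest of its group, as in 24 of the 33 genes higher with clofibrate (72.7%).

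Slc27a1, a fatty acid transport protein, was 152, 399 and 304 with clofibrate, 42.3, 47.0 and 64.2 with permethrin and 51.3, 38.0 and 46.6 in controls. Permethrin and control arrays overlapped, and all clofibrate arrays were higher. The diets differed 4.99-fold (-2.32 ± 0.30; adjusted p = 0.00768; 0.0521 without clofibrate replicate 3), and both probe sets passed. Slc27a4, of the same family, differed 2.01-fold (adjusted p = 0.0277; 0.143 without clofibrate replicate 3). These were 2 of 18 tested genes of fatty acid uptake and binding, 0 were higher with permethrin, and the median was -0.27. Cd36, a fatty acid receptor, was 1876, 1534 and 1847 with permethrin, 2941, 3536 and 2990.5 with clofibrate and 101, 166 and 152 in controls. The 3 groups did not overlap, yet the probe set of highest signal, at a difference of -0.85 ± 0.17, did not pass (adjusted p = 0.0582). Of its other 2 probe sets, 1 passed (adjusted p = 0.0338). Against control Cd36 was 12.5-fold higher with permethrin (adjusted p = 2.56e-06) and 22.5-fold with clofibrate (adjusted p = 2.55e-07).

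Acyl-CoA thioesterases release free fatty acids from coenzyme A. In a list drawn up after the differences had been seen, 4 of 11 tested were higher with clofibrate, 0 with permethrin, and the median was -0.59. Acot1, the cytosolic enzyme, was 4475, 4431 and 4646 with clofibrate, 2094, 2588 and 2025 with permethrin and 212, 279 and 297 in controls. The groups did not overlap and both diets were above control, clofibrate 17.1-fold (adjusted p = 1.26e-07) and permethrin 8.44-fold (adjusted p = 2.56e-06). The diets differed 2.03-fold (-1.02 ± 0.14; adjusted p = 0.00869; 0.0629 without clofibrate replicate 3). Acot2, the mitochondrial enzyme, was 1479, 2253 and 2097 with clofibrate and 413, 1053 and 675 with permethrin, 2.87-fold apart (-1.52 ± 0.28; adjusted p = 0.0354; 0.159 without clofibrate replicate 3). Acot8, of the peroxisome, differed 1.87-fold (adjusted p = 0.0145; 0.0897 without clofibrate replicate 3). Acot12, which acts on acetyl-CoA, differed 1.51-fold (adjusted p = 0.0376; 0.177 without clofibrate replicate 3); its second probe set had a log2 difference of 0.77, of the opposite sign, that did not pass (adjusted p = 0.49).

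Mitochondrial fatty acid oxidation had 3 of 25 tested genes higher with clofibrate (Acot2, Eci1 and Hadha) and 0 with permethrin, at a median of -0.31. Eci1, an enoyl-CoA isomerase for unsaturated fatty acids, was 3424, 4706 and 4345 with clofibrate, 2186, 2365 and 2554 with permethrin and 1150.0, 1141 and 1297 in controls. Its groups did not overlap, and permethrin (1.98-fold, adjusted p = 0.0026) and clofibrate (3.44-fold, adjusted p = 1.98e-05) were both above control. The diets differed 1.74-fold (-0.80 ± 0.13; adjusted p = 0.0178; 0.107 without clofibrate replicate 3). Hadha, a subunit of the trifunctional protein of beta-oxidation, was 2363, 3282 and 2926 with clofibrate and 1777, 1730.1 and 1867 with permethrin, 1.58-fold apart (adjusted p = 0.0432; 0.175 without clofibrate replicate 3). Cpt1a, which makes the carnitine esters that enter mitochondria, was 1626, 1749 and 1998 with clofibrate and 1129.8, 997 and 1260.5 with permethrin. The arrays did not overlap, and its difference of -0.67 ± 0.13 fell just short (adjusted p = 0.0538).

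Of 32 tested genes listed under fatty acid oxidation in peroxisomes, 3 were higher with clofibrate (Crat, Acot8 and Acot12) and 0 with permethrin, at a median of -0.14. Acot8 and Acot12 are also in the list of type 1 and cytosolic acyl-CoA thioesterases above, and Acot12 acts on acetyl-CoA. Crat, a carnitine acetyltransferase, was 767, 920.1 and 983 with clofibrate, 439, 410.0 and 501 with permethrin and 136, 122 and 152 in controls. Each group was separate from the others, and the diets differed 1.97-fold (-0.98 ± 0.14; adjusted p = 0.011; 0.079 without clofibrate replicate 3). Its 2 other probe sets differed by -0.36 and -0.11 on the log2 scale and did not pass. Ehhadh, the bifunctional enzyme of peroxisomal oxidation, was 7074, 7563 and 7339.7 with permethrin and 7271, 9051 and 8985 with clofibrate against 2402, 2775 and 2495 in controls. Here the diets overlapped, and the difference of -0.20 ± 0.10 did not pass (adjusted p = 0.489; 95% interval -0.42 to 0.03), although both diets were above control, 2.87-fold (adjusted p = 3.62e-05) and 3.29-fold (adjusted p = 5.68e-06). Pex11a, which elongates peroxisomes, was likewise above control on both diets (4.2-fold, adjusted p = 0.00101, and 5.59-fold, adjusted p = 1.46e-04), with overlapping diet arrays and a difference of -0.41 ± 0.23 (adjusted p = 0.513; 95% interval -0.91 to 0.09).

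Other PPAR alpha targets had 3 of 24 higher with clofibrate (Acot1, Vnn1 and Slc16a13), 0 with permethrin, and a median of -0.36. Vnn1, a pantetheinase that recycles part of coenzyme A, was 4566, 4428 and 5012 with clofibrate, 1744, 2285 and 2968 with permethrin and 152, 217 and 235 in controls. Both diets were far above control, 23.2-fold (adjusted p = 4.83e-07) and 11.3-fold (adjusted p = 8.18e-06), and their arrays did not overlap. The diets differed 2.04-fold (-1.03 ± 0.20; adjusted p = 0.0453; 0.177 without clofibrate replicate 3), and both probe sets passed. Slc16a13, a monocarboxylate transporter, differed 1.97-fold (adjusted p = 0.0448; 0.135 without permethrin replicate 2). Pdk4, which restrains pyruvate oxidation, was 253, 304 and 574 with permethrin and 301, 542 and 521 with clofibrate, with overlapping arrays and a difference of -0.31 ± 0.33 (adjusted p = 0.763; 95% interval -1.04 to 0.41). Fgf21, a fasting hormone of the liver, had a difference of -0.75 ± 0.30 (adjusted p = 0.338; 95% interval -1.40 to -0.10). Mogat1, a monoacylglycerol acyltransferase, was 377, 726 and 509.9 with clofibrate and 118, 117 and 219.9 with permethrin, and despite a difference of -1.82 ± 0.42 it did not pass (adjusted p = 0.0965).

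Omega oxidation, carried out by the Cyp4a enzymes, had 0 of 11 tested genes called between the diets, at a median of -0.047. Cyp4a14 was 7999, 8714 and 8077 with permethrin and 7298, 8420.0 and 7898 with clofibrate, with controls spread from 489.8 to 4234. Its diet arrays overlapped, with a 95% interval of -1.17 to 1.32 for the log2 difference (adjusted p = 0.975). Cyp4a12a was 12.7-fold above control with permethrin (adjusted p = 0.00447) and 17.5-fold with clofibrate (adjusted p = 8.17e-04), and its difference of -0.46 ± 0.51 between the diets did not pass (adjusted p = 0.776; 95% interval -1.58 to 0.66). Lipid droplet genes (0 of 18), peroxisome assembly (0 of 17) and ketone body synthesis (0 of 6) gave no call either.

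Cholesterol synthesis had 2 of 20 tested genes higher with clofibrate, 0 with permethrin, and a median of -0.56, with 19 of the 20 differences below 0. Cyp51, a lanosterol demethylase, was 1148, 1768 and 1519 with clofibrate, 742, 654 and 649 with permethrin and 488, 431 and 502 in controls. All groups were separate, and the diets differed 2.13-fold (-1.09 ± 0.15; adjusted p = 0.00994; 0.0638 without clofibrate replicate 3). Of its 3 probe sets only this 1 passed. The others differed by -0.90 and -0.50 on the log2 scale (adjusted p = 0.12 and 0.726), and the call ended when probe sets were averaged. Clofibrate was 3.06-fold above control (adjusted p = 1.58e-04). Pmvk, phosphomevalonate kinase, was 578, 1035 and 704 with clofibrate and 372, 367 and 393 with permethrin, 1.98-fold apart (adjusted p = 0.0347; 0.127 without clofibrate replicate 3). Erg28, an ER scaffold for sterol enzymes that was not in the list, was 1061, 1678 and 1394 with clofibrate, 785, 535 and 717 with permethrin and 948, 937 and 807 in controls. Its control arrays lay between the diets, which differed 2.02-fold (adjusted p = 0.0338; 0.151 without clofibrate replicate 3). Sqle, squalene epoxidase, had a difference of -0.79 ± 0.31 that did not pass (adjusted p = 0.339; 95% interval -1.47 to -0.10).

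**Figure D4:**
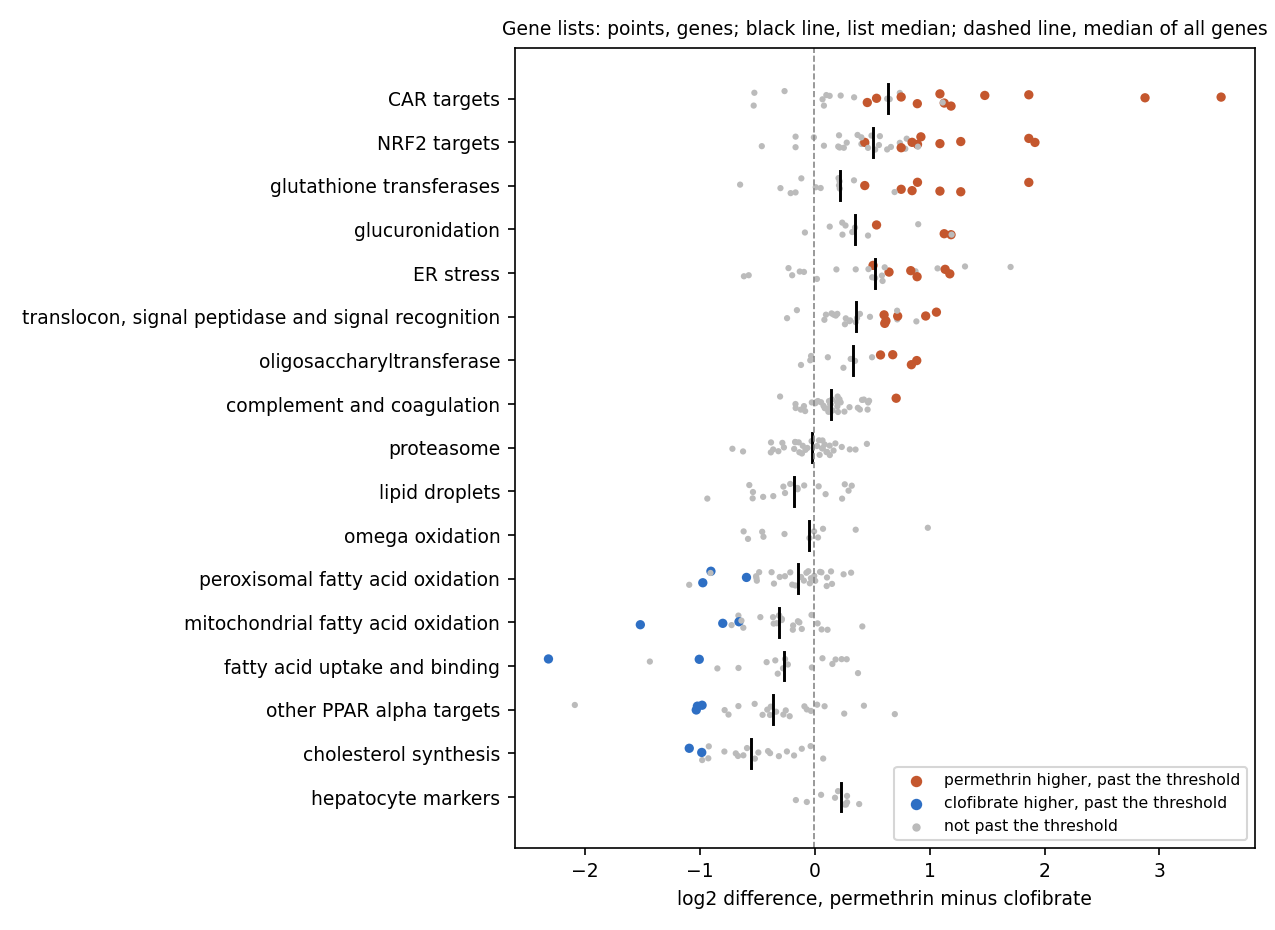
For 17 gene lists, each point is a tested gene at its log2 difference between the diets (permethrin minus clofibrate); black lines are list medians and the dashed line is the median of all genes. Orange points (permethrin higher) appear in the lists at the top and blue points (clofibrate higher) in the lipid lists further down, while the proteasome, lipid droplet, omega oxidation and hepatocyte lists hold none.

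The remaining large differences in favour of clofibrate were scattered over function. Scyl2, a protein of clathrin-coated vesicles, was 364, 472 and 328 with clofibrate and 119, 63.1 and 164 with permethrin, 3.49-fold apart (-1.80 ± 0.28; adjusted p = 0.0178), and both probe sets passed. Trpm4, a cation channel, differed 2.99-fold (adjusted p = 0.0208), Lgals4, a galectin, 2.65-fold (adjusted p = 0.0312), and Uap1l1 2.55-fold (adjusted p = 0.018). In these 3 the mean with permethrin was under 50, against 108 to 112 with clofibrate. Serinc2 was 327, 397 and 395 with clofibrate, 127, 145 and 163 with permethrin and 48.4, 38.5 and 70.0 in controls, in 3 separate groups, with a 2.53-fold difference between the diets (adjusted p = 0.0145). Rad51b, a protein of homologous recombination, was 1331, 1005 and 1004 with clofibrate and 452, 479 and 577 with permethrin, both above its control signals of 163, 147 and 222, and differed 2.2-fold (adjusted p = 0.0169). Qpct, a glutaminyl cyclase, differed 2.32-fold (adjusted p = 0.0116), and the unnamed transcript 1810008I18Rik 2.49-fold (adjusted p = 0.0201). Each of these 8 calls ended in at least 1 leave-one-out fit, with largest adjusted p-values of 0.0674 without clofibrate replicate 2 for Scyl2, 0.112 for Trpm4, 0.151 for Lgals4, 0.107 for Uap1l1, 0.0897 for Serinc2, 0.0638 for Rad51b, 0.0629 for Qpct and 0.0941 for 1810008I18Rik; for all but Scyl2 and Rad51b that was without clofibrate replicate 3.

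Where the control level lay differed between the 2 sides of the comparison, and is given as a description. Of the 33 genes higher with clofibrate, 27 had a control mean below both diets, 5 between them and 1 above both. Of the 59 genes higher with permethrin, 4 had a control mean below both diets, 37 between them and 18 above both. Over all tested genes these shares were 30.2%, 28.4% and 41.4%. The 1 gene higher with clofibrate and below control on both diets was Hlx, a homeobox factor, at 9.02, 6.08 and 5.87 with permethrin, 24.3, 24.4 and 27.2 with clofibrate and 36.5, 26.2 and 47.6 in controls (diet difference 2.8-fold, adjusted p = 0.0432; 0.18 without clofibrate replicate 3). Rpgrip1, marked in the plot of difference by signal, was 59.1, 70.6 and 40.0 with permethrin, 14.1, 20.4 and 12.3 with clofibrate and 54.6, 44.0 and 44.7 in controls, with dim signals throughout (diet difference 3.13-fold, adjusted p = 0.0145; 0.0812 without clofibrate replicate 3).

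Control arrays can lie between the diets only where the diet arrays do not overlap. That held in all 92 called genes but in 2263 of all tested genes (18.1%), so the counts here only describe. All 3 control arrays lay between the arrays of the diets in 63 of all tested genes (0.505%). Among these were 19 called genes, 16 with permethrin and 3 with clofibrate higher. Beside Cyp2b10, Cyp2c55, Gstm2, Slc35b1, Spcs3, Sec24d and Erg28 they include Tubb2a, a beta-tubulin, at 3269, 3000.5 and 3199 with permethrin, 1853, 1389 and 1599.9 with clofibrate and 1858, 2473 and 2385 in controls (1.97-fold between the diets, adjusted p = 0.00919; 0.0629 without clofibrate replicate 3). Cd9, a tetraspanin, was 399.5, 309 and 326 with clofibrate, 204, 188 and 217 with permethrin and 255, 272 and 302 in controls (1.68-fold, adjusted p = 0.0347; 0.134 without clofibrate replicate 3). Rfx1, a transcription factor, was 54.1, 64.2 and 66.7 with clofibrate, 26.6, 28.1 and 33.4 with permethrin and 44.1, 53.1 and 43.1 in controls (1.99-fold, adjusted p = 0.0334; 0.162 without clofibrate replicate 3).

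Plasma protein, steroid and glucose genes gave a few further calls, most of them 1 per list. With 0.737% of all tested genes called, lists of 25 to 38 genes can hold 1 call at the background rate. Of 13 tested carboxylesterases, 2 were called higher with permethrin (Ces1c and Ces2a), at a median of 0.41. Of 13 tested liver genes listed as male-biased, 3 were called higher with permethrin (Cyp7b1, Gstp1 and Ugt2b1), at a median of 0.43. That is 23.1%, against 0.473% of all tested genes, in mice that were all female. Of 19 tested genes listed as female-biased, 0 were called, at a median of -0.23. Gstp1 and Ugt2b1 are also counted above, and 0 of these 3 calls held in all leave-one-out fits. C1s1, a complement protease, was 861, 1012 and 1203 with permethrin, 654, 626 and 584 with clofibrate and 1822, 2110.0 and 1969.8 in controls. Both diets were below control, permethrin 1.93-fold (adjusted p = 0.00395) and clofibrate 3.15-fold (adjusted p = 3.93e-05), and they differed 1.63-fold (adjusted p = 0.0347; 0.162 without clofibrate replicate 3). It was the 1 of 38 tested complement and coagulation genes that was called. Hsd11b1, which regenerates active glucocorticoid, was 5408, 5240.0 and 4666 with permethrin, 3955, 3283 and 3404 with clofibrate and 7135, 7036 and 6891 in controls, in 3 separate groups (1.44-fold between the diets, adjusted p = 0.0354; 0.166 without clofibrate replicate 3). Ces1c, a carboxylesterase secreted into plasma, showed the same order, at mean signals of 4829.5 with clofibrate, 7674 with permethrin and 10639 in controls (1.59-fold between the diets, adjusted p = 0.00869; 0.0629 without clofibrate replicate 3). Cyp7b1, an oxysterol hydroxylase of bile acid synthesis, was 1919.7, 1371 and 1167 with permethrin and 740.5, 708 and 639.9 with clofibrate (2.09-fold, adjusted p = 0.0319; 0.151 without clofibrate replicate 3), and it was the 1 of 25 tested bile acid genes called. Ppp1r3c, which brings a phosphatase to glycogen, differed 1.69-fold (adjusted p = 0.0468; 0.186 without clofibrate replicate 3), the 1 call among 26 genes of glucose metabolism. Il1rn, the interleukin-1 receptor antagonist, was higher with clofibrate, 2.74-fold (adjusted p = 0.0314; 0.151 without clofibrate replicate 3), the 1 call among 28 acute phase genes.

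Many lists that cover most of liver metabolism held no called gene. They include amino acid and urea cycle genes (0 of 51), the respiratory chain (0 of 36), the proteasome (0 of 35), the cell cycle (0 of 31), nuclear receptors and cofactors (0 of 29), lipogenesis (0 of 22), apolipoproteins (0 of 21) and the interferon response (0 of 21). Their medians ran from -0.063 for the respiratory chain to 0.30 for the interferon response, with 0.26 for the cell cycle. In the interferon list 17 of 21 genes were above the median of all genes, and its median relative to all genes was 0.58 without clofibrate replicate 3 and 0.064 without clofibrate replicate 1. With 0.737% of all genes called, a list of this size holds few calls or none at the background rate. Pklr, the liver pyruvate kinase, was 2.4-fold below control with permethrin (adjusted p = 0.00206) and 3.62-fold with clofibrate (adjusted p = 7.49e-05), and its difference between the diets, 0.59 ± 0.15, did not pass (adjusted p = 0.137; 95% interval 0.25 to 0.93).

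None of 96 tested markers of 11 cell type lists was called between the diets by limma, and 15 had an unadjusted p under 0.05. The hepatocyte markers, among them Alb, Apoa1 and Ttr, had a summed signal of 67126 to 72279 with permethrin, 55157 to 65070 with clofibrate and 77543 to 85283 in controls, so the diets did not overlap in this sum; 5 of the 10 had an unadjusted p under 0.05. The part of this in the calls of bright hepatocyte genes higher with permethrin was not tested. Kupffer cell and macrophage markers summed to 3649 to 7702 with permethrin and 4254 to 5807 with clofibrate, and sinusoidal endothelial markers to 3792 to 4149 and 3435 to 3554. Stellate cell markers overlapped between the diets, at 4353 to 4699 and 3860 to 4998. Pancreas markers overlapped too, at 228 to 357 and 272 to 326, but summed to 1209 to 1523.5 in controls. The part of this in the comparisons with control was not tested. In whole liver, fewer cells of a type and less RNA per cell cannot be told apart.

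Directions were compared only among the called probe sets of a gene. Uncalled probe sets of Acot12 (log2 difference 0.77, limma adjusted p = 0.49) and Rpn1 (-0.51, adjusted p = 0.566) had the opposite sign to the called ones. Of the 92 called genes, 45 had several tested probe sets, and in 9 of these every probe set was called; 0 genes had called probe sets in both directions. The 9 genes are Cyp2b10 (3), Gstm3, Cyp7b1, Ssr3, Ugt2b34, Vnn1, Slc27a1, Acot2 and Scyl2 (2 each). Of the 24 called ER and vesicle genes, 20 had several probe sets, and 18 of these rest on 1 called probe set, among them Sec61a1 (of 6), Dnajc3 and Lman1 (of 5), Ssr1 (of 4) and Hspa5, Calr and Hyou1 (of 3). When all probe sets of a gene were averaged, 14 of those 18 calls ended, these 7 included. The call of Rpn1, with 4 of 6 probe sets called, ended as well. Among the probe sets that represent the called genes, 9 carry the suffix s and 5 the suffix x, which in this array design mark probes that match more than 1 transcript.

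How many genes separated the diets depended strongly on single arrays and on the variance model. Leaving out 1 diet array gave 17 to 119 called genes, and the lowest count, 17 (16 higher with permethrin and 1 with clofibrate), came without clofibrate replicate 3. Without permethrin replicate 1 the count was 46, without permethrin replicate 2 57, without permethrin replicate 3 62, without clofibrate replicate 2 50 and without clofibrate replicate 1 119. Of the 92 calls, 16 held in all 6 of these fits, 15 of them higher with permethrin, and 15 ended only without clofibrate replicate 3. Over all tested genes, 1629 had an unadjusted p under 0.05.

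**Figure D5:**
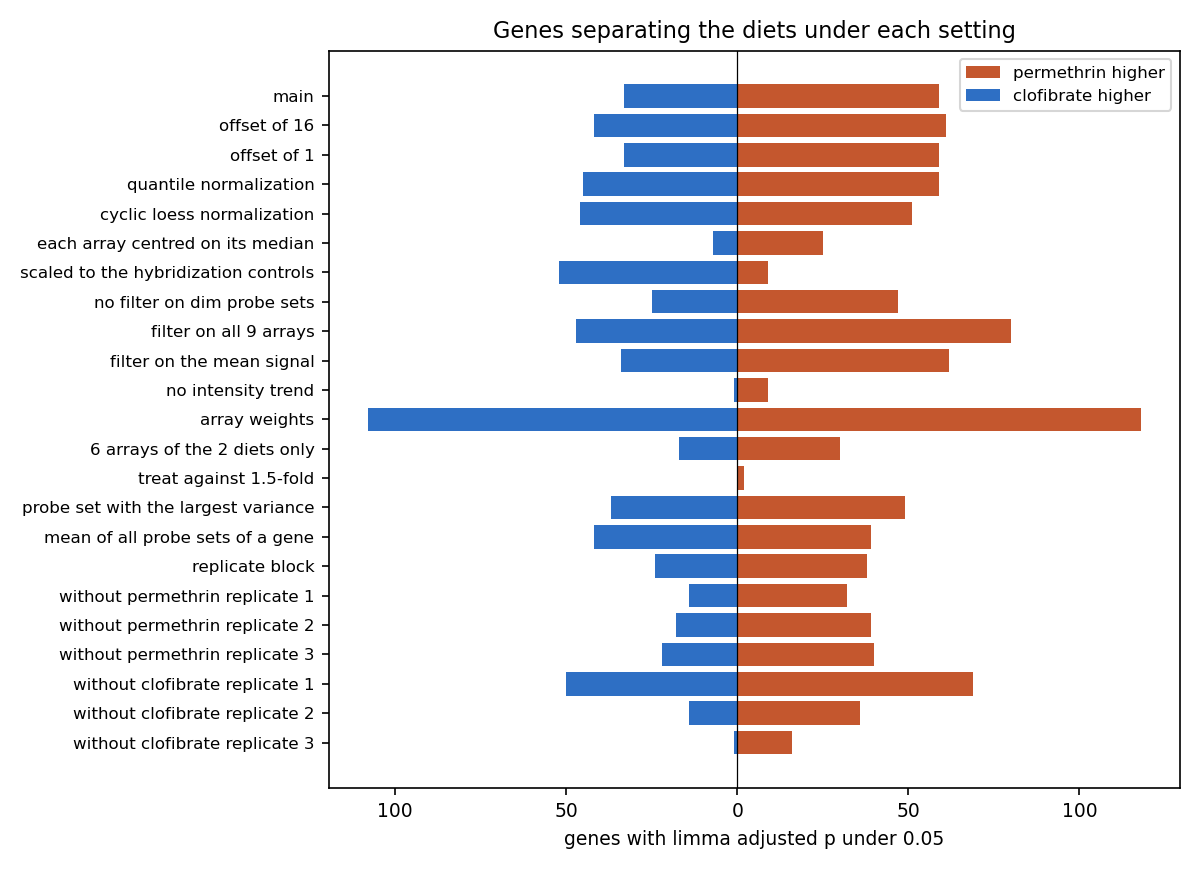
Bars give the number of genes with a limma adjusted p under 0.05 between the diets under each setting, with permethrin higher to the right (orange) and clofibrate higher to the left (blue). The main setting has 59 and 33; array weights give the longest bars, 118 and 108, and the treat test against 1.5-fold the shortest, 2 and 0.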

How the data were processed

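Liver RNA from 9 mice was measured on Affymetrix arrays, 1 array per mouse, as biotin-labelled cRNA made from 5 µg of total RNA, per the labels' protocols. The deposited values are linear MAS5 signals (intensity), per the submitters' processing notes; the MAS5 settings are not given in these sources. Log2 was taken after adding 3.35, the 20th percentile of all signals, so a fold change of a dim gene is understated. A probe set entered the test if 3 or more arrays exceeded 15.6, the overall median signal: 24546 of 45037 did, of which 21388 carried 1 gene symbol. Each gene is the brightest of its tested probe sets, by mean log2 signal.

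One limma model (limma 3.58.1, R 4.3.3, with the data.table package at 1.17.8) with a mean per diet was fitted to all 9 arrays, with an intensity trend, two-sided tests, Benjamini-Hochberg adjustment over 24546 probe sets and a threshold of 0.05. Unless stated otherwise, ± is the SD after a signal and the SE after a log2 difference (permethrin minus clofibrate), and adjusted p-values are limma's. An array named after a second adjusted p is the one whose absence gave the largest p among the 6 fits that each left out 1 diet array. The script was tested on simulated data.

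The members, gene lists and naming rule were chosen with earlier results of these data known, and 6 lists were added after the differences were seen. The rule named the 12 largest called differences each way with a mean signal of at least 100 in the higher diet, members of each list, genes whose control arrays lay between the diets and fixed markers; genes of the 6 added lists, Rpgrip1 and Hlx were chosen after their values were seen. Some genes of the lists were not analysed here. Nothing in the labels pairs mice by number. Same-numbered arrays of any 2 groups deviated from their group means with correlations of -0.109 to 0.113. Between permethrin and clofibrate these were 0.113, 0.0295 and 0.0728, against -0.0903 to 0.0181 for arrays of unlike number. Whether the numbers mark a pairing was not tested. The labels call the samples biological replicates. The number of arrays limits the precision. Promoters came from RefSeq (GRCm38.p6).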

Additional observations from a re-analysis of the deposited data

How the results depend on the processing

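Calls between the diets, 92 genes (59 higher with permethrin, 33 with clofibrate) and 136 probe sets, moved with the settings. Without the intensity trend 10 genes (9 and 1) and 24 probe sets passed, with array weights 226 (118 and 108) and 374, with the 6 diet arrays alone 47 (30 and 17) and 75, and by treat against 1.5-fold 2 (2 and 0) and 8. Median centring gave 32 (25 and 7) and 54, and scaling to the hybridization controls 61 (9 and 52). Averaging all probe sets of a gene gave 39 higher with permethrin and 42 with clofibrate. With the replicate number as a block, 62 genes passed, 38 of them higher with permethrin. The numbers are not known to pair mice. Leaving out 1 diet array gave 17 to 119 genes, 16 to 69 higher with permethrin, 1 to 50 with clofibrate, and 28 to 181 probe sets. Of the 92 calls, 2 held in all 22 settings and 63 ended in 6 or more; the causes were not tested.

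These differences changed sign. Cyp4a14 was -0.12 after quantile normalization, -0.034 after cyclic loess and -0.15 on the hybridization controls. With the probe set of largest variance, Acot12 was 0.77 (-0.0082 for clofibrate minus control), Dnajc17 1.01, Mrpl54 0.10, and clofibrate minus control 0.35 for Hyou1 and 0.55 for Tuba4a; averaging probe sets gave 0.089 for Acot12 and 0.0031 for Dnajc17. Dim signals and 3 arrays per diet limit what can be detected.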

Other observations

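Of the 136 probe sets that passed between the diets, 5 had no gene symbol here and 3 had several. Probe set 1443137_at had signals of 132, 99.5 and 109.9 with permethrin, 14.3, 12.3 and 6.91 with clofibrate and 37.9, 22.8 and 49.4 in controls, 8.22-fold apart with the control arrays between the diets (limma adjusted p = 9.30e-04). Probe set 1459740_s_at was 415, 444 and 586 with clofibrate and 109, 165 and 235 with permethrin, 2.9-fold apart (adjusted p = 0.0246).

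Some genes with large mean differences did not pass; they were chosen after their values were seen. B4galnt1 had signals of 347, 389 and 419 with permethrin and 193, 1.56 and 1.27 with clofibrate. Saa2, an acute phase protein, was 5181, 86.5 and 4483 with clofibrate and 142, 202 and 553 with permethrin, so that 1 clofibrate array lay below every permethrin array. H2-Eb1, an antigen-presenting class II gene, was 81.6, 41.1 and 559 with permethrin and 24.1, 18.6 and 27.9 with clofibrate, with permethrin replicate 3 far above the rest. Ly6d was 257, 730.3 and 494 with clofibrate and 67.3, 40.5 and 226 with permethrin.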
